A study of Homo sapiens with 40 samples.

Results

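LINC RNAs are long intergenic noncoding RNAs: transcripts made mostly by RNA polymerase II from stretches of the genome that encode no known protein, and named by number until a function is assigned. As background, many carry introns, a cap and a poly(A) tail as mRNAs do, most are kept in the nucleus at low copy number, and their levels tend to differ more between cell types than those of mRNAs. Some act on a neighbouring gene through their promoter or their own transcription, some act in trans as scaffolds for proteins, and for most members no role is known in microglia, the resident macrophages of the brain.

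The RNAs described here were chosen by symbol and level: genes whose symbol is LINC followed by a number and which reached at least 1 TPM (a gene's share of a library's transcripts, corrected for transcript length and scaled so that every library has the same total) in at least 7 of the 40 libraries. Of 60504 genes listed, 2218 carried such a symbol and 143 met the level, while 2075 did not, 1078 of them at 0 in every library. LINC01010 and LINC01357 were picked because they differed between the lines, so their levels are described without a test, and the counts below are over the other 141. All 143 passed the same minimum that was set for every gene (14855 kept genes), so a member that passed through the groups in which it was high had to differ. Just inside the limit, with 7 libraries, were LINC01614, LINC01664 and LINC01914, whose means over all libraries were 0.832, 0.709 and 0.539 TPM. Just outside it, with 6 libraries, were 10 genes whose means ran between 0.442 TPM (LINC00968) and 0.968 TPM (LINC01220).

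The libraries came from microglia-like cells grown from the human embryonic stem cell line H9, edited with CRISPR-Cas9 to carry homozygous variants of genes linked to Alzheimer's disease. There were 8 libraries of TREM2-KO cells, which lack the lipid-sensing receptor TREM2, 7 of TREM2-R47H cells with a missense variant of it, 7 of SORL1-KO cells (the R744X stop in the endosomal sorting receptor SORL1), 7 of SORL1-A528T cells, 2 of CD33-SNP cells, 2 of INPP5D-SNP cells and 7 of unedited WT cells. H9 was itself heterozygous at the INPP5D polymorphism, and the edited line was homozygous for the A allele. The edited lines were isolated as clones, and the labels say neither how many clones stand behind a group nor whether its libraries are separate differentiations, so a p-value reflects library-to-library spread, which may be technical. All groups had the same culture: blood progenitors collected on day 11, then 28 days of differentiation with M-CSF at 25, TGF-b1 at 50 and IL-34 at 100 ng/mL, joined for the last 3 days by CX3CL1 and CD200, both at 100 ng/mL.

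The labels gave a mean depth of 45.13 M for the libraries, with a range of 39.2 to 64.6 M, and TPM itself keeps no depth, so no counting error can be attached to a value. All 13 microglia markers were expressed, and the summed level of 7 pluripotency markers was at most 0.87 TPM in any library. TREM2 itself averaged 35.3 ± 8.4 TPM in TREM2-KO libraries against 457 ± 120 TPM in WT libraries, and SORL1 averaged 16.1 ± 3.0 TPM in SORL1-KO libraries against 33.3 ± 9.7 TPM in WT libraries. TREM2-KO library 8, SORL1-KO library 7 and SORL1-A528T library 7 stood apart from the rest of their groups over kept genes. The SD of log2(TPM + 1) differences from the other libraries of the group had medians of 0.80, 0.79 and 0.72. TREM2-KO library 4 came close to these, at 0.70, and is not counted among the libraries that stood apart. In TREM2-KO, TREM2-R47H, SORL1-KO, SORL1-A528T and WT, libraries 5 and 6 lay close together. The SD of their log2(TPM + 1) differences was 0.37, 0.37, 0.37, 0.39 and 0.41. The median for library 5 against all others of its group was 0.51, 0.53, 0.48, 0.49 and 0.54. Both were fitted as separate libraries, and the labels do not say whether they are repeats. Markers of stromal and endothelial cells (12 genes, summarised as the mean of log2(TPM + 1)) varied between groups, at 1.92 in TREM2-KO, 2.02 in TREM2-R47H, 1.70 in SORL1-KO, 1.83 in SORL1-A528T, 2.24 in CD33-SNP and 4.80 in INPP5D-SNP libraries, against 3.60 in WT libraries, where single libraries ran between 1.18 and 5.90. Their part in a result was tested only by adding that score to the fit, and is given where it changed a call.

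The promoters of a few members are shown first, because the results below turn on them: LINC01357 and LINC01356, whose 5′ ends overlap on opposite strands and whose levels moved together, LINC01010, which separated the TREM2 lines, and LINC01614, which followed the stromal markers. Each runs 5′ to 3′ on the gene's own strand, from 250 bases before to 50 bases after the RefSeq start site on GRCh38.p14, with CG dinucleotides in capitals; for LINC01357 that site lies 171 bases upstream of the GENCODE start. The windows are chr1:112849607-112849906 (plus strand) for LINC01357, chr1:112850594-112850893 (minus strand) for LINC01356, chr6:134437466-134437765 (plus strand) for LINC01010 and chr2:215717793-215718092 (plus strand) for LINC01614.
LINC01357: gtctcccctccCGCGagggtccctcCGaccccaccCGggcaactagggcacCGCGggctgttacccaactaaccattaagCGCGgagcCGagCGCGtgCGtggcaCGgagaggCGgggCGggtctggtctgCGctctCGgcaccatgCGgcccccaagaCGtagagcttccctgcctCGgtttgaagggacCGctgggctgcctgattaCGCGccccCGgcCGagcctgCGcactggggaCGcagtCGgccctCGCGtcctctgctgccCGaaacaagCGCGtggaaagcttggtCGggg
LINC01356: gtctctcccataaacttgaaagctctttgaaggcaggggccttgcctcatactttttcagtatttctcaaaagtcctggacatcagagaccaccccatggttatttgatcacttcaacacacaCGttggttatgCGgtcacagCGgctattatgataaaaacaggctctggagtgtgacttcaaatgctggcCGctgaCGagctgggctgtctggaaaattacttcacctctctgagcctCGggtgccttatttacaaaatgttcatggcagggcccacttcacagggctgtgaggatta
LINC01010: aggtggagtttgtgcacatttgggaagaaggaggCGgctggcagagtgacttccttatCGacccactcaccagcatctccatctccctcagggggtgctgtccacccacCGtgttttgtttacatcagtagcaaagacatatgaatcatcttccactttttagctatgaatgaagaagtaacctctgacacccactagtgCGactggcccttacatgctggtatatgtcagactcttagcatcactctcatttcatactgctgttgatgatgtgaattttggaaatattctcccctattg
LINC01614: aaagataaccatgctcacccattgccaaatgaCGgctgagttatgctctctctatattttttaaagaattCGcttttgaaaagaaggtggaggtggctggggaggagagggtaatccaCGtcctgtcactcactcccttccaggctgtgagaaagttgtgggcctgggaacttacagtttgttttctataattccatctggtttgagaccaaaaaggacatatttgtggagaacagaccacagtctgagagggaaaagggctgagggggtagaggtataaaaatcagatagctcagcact
The LINC01357 window held 34 CG dinucleotides, and 15.6% of the 35116 promoter windows of 300 bases held at least as many. The other windows were poor in them, with 6 for LINC01356, 4 for LINC01010 and 3 for LINC01614, against a median of 14 over all windows and 10 over the 102 windows of the 91 members that could be matched. The hexamer GGAAGT, the core bound by ETS factors such as the myeloid regulator PU.1, was searched on both strands: it was in the LINC01010 window once and in none of the other 3, in 33.3% of the members' windows and in 22.8% of all windows. TATAAA, likewise on both strands, was in the LINC01614 window once, in 11.8% of the members' windows and in 11.5% of all windows. The LINC01614 match lay in the last 50 bases, downstream of the start site. These matches describe the letters in the windows and show no binding.

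LINC RNAs were a small part of the RNA in every line. The summed level of the 143 members ran between 802 and 1214 TPM, or 0.0802% to 0.121% of a library. One transcript dominated: LINC01235 (chr9:13406380-13433053, minus strand), averaged 227 TPM and made up 11.5% to 31.6% of the members' total. LINC00963 followed with a mean of 53.8 TPM, LINC01002 with 37.2, LINC01480 with 36.8, LINC01094 with 27.2, LINC01357 with 25.1, LINC00667 with 23.7 and LINC03014 with 21.5 TPM. These 8 were the members with means of at least 20 TPM. LINC01128 (19.3 TPM), LINC01503 (18.3), LINC00888 (15.4) and LINC00900 (15.2) completed the 12 most abundant.

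**Figure D1:**
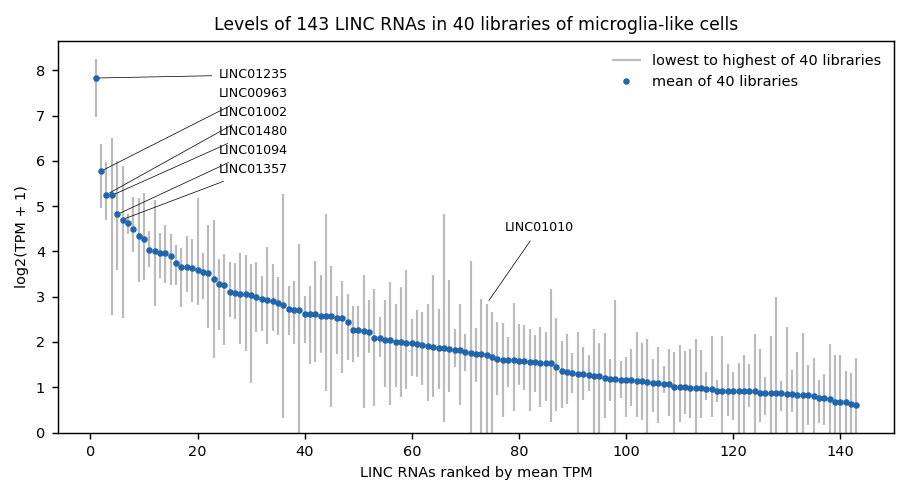
Levels of the 143 LINC RNAs, ranked by mean TPM along the horizontal axis; the vertical axis is log2(TPM + 1). Blue points are means over the 40 libraries and grey bars run from the lowest to the highest library. LINC01235 stands above all others with a mean of 227 TPM, and the long bars further right belong to members that were near 0 in some libraries.

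Below these, levels dropped quickly. The median of the members' means was 2.34 TPM, against 13.4 TPM over all kept genes and 18.7 TPM over kept protein-coding genes; 111 members had a mean of at least 1 TPM and 22 a mean of at least 10 TPM. Detection was patchier than for other genes: 58 members (40.6%) were at 1 TPM or more in all 40 libraries, against 76.6% of kept genes. Even so, 94 members averaged at least 1 TPM in each of the 7 groups, and 6 did so in a single group. The summed level had group means of 936 ± 99 TPM in TREM2-KO, 918 ± 123 in TREM2-R47H, 957 ± 123 in SORL1-KO, 1002 ± 104 in SORL1-A528T, 1015 ± 56 in CD33-SNP and 1089 ± 20 in INPP5D-SNP libraries, against 955 ± 55 TPM in WT libraries (SD, n = 8, 7, 7, 7, 2, 2 and 7). Groups overlapped, with INPP5D-SNP against WT and against CD33-SNP as exceptions. Both INPP5D-SNP libraries (1075 and 1103 TPM) lay above all WT (901 to 1042 TPM) and CD33-SNP libraries (975 and 1054 TPM).

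By GENCODE release 29 (GRCh38), which gave a position to all 143, 111 members were typed as lincRNA, 12 as processed transcripts, 8 as antisense RNAs and 6 as transcribed unprocessed pseudogenes. Of the rest, 2 were typed as protein-coding, 2 as bidirectional promoter RNAs, 1 as a transcribed unitary pseudogene and 1 as sense overlapping. The median distance to the nearest kept protein-coding gene was 21466 bases, and 13 members overlapped the body of that gene. Exons of 22 members overlapped an exon of a kept gene on the opposite strand, and 23 members started within 1 kb of the start of a gene read the other way. The library kit was directional but the strand setting of the counting is not stated in the labels, so reads of such pairs may not be separated. Sequence shared with other genes was common too, counted on both strands, so the count includes exon overlaps on the opposite strand. Of the members, 37 shared over 10% of their 50-base stretches with another gene's transcripts and 9 shared over 50%. Among these 9 were LINC01002 with 69.9% and LINC01357 with 60.5%, so their levels are uncertain. For LINC01357 this includes its overlap with LINC01356 on the opposite strand. LINC01356 shared 23.2%, and LINC01235, LINC00963, LINC01480 and LINC01094 each shared under 3%.

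The most abundant member, LINC01235, was lower in TREM2-KO than in TREM2-R47H cells. Its level was between 125 and 233 TPM (median 192) in TREM2-KO libraries, between 221 and 302 TPM (median 261) in TREM2-R47H libraries and between 198 and 255 TPM (median 222) in WT libraries. TREM2-KO libraries averaged 188 ± 38 TPM against 259 ± 33 TPM in TREM2-R47H libraries, a difference of -0.48 ± 0.11 (SE) on the log2(TPM + 1) scale (limma, adjusted p = 0.0016), and both groups overlapped only through TREM2-KO libraries 5 and 6. The nearest protein-coding gene, MPDZ, a scaffold of cell junctions 126790 bases away, fell further between the same lines, to 6.0 ± 2.0 TPM in TREM2-KO libraries against 18.7 ± 1.9 TPM in TREM2-R47H libraries (-1.54, adjusted p = 1.6e-08). Between TREM2-KO and WT libraries LINC01235 did not pass (-0.31 ± 0.11, limma, adjusted p = 0.181).

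Some abundant members also varied from library to library within every large group. LINC01094 (chr4:78645903-78682699, plus strand, near the annexin gene ANXA3) was at 51.2, 38.7, 42.2, 45.8 and 62.8 TPM in the libraries numbered 4 of TREM2-KO, TREM2-R47H, SORL1-KO, SORL1-A528T and WT, and at 49.1 and 58.7 TPM in CD33-SNP library 1 and INPP5D-SNP library 1. Apart from these and the 3 libraries that stood apart (44.6, 58.4 and 50.6 TPM), it was at most 27.2 TPM. It was thus high in at least 1 library of every group, whatever the edit. LINC01480 (chr19:41535183-41536904, plus strand) was high in libraries 4, 5 and 6 instead: in TREM2-R47H it was at 44.3, 48.8 and 40.3 TPM in those, and at 5.04 to 16.3 TPM in the other 4 libraries. LINC00667, by contrast, stayed between 19.97 and 27.5 TPM in all 40 libraries, the narrowest range of the 12.

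LINC01357 was high in 4 groups and low in 3. It lies on chromosome 1 (chr1:112850028-112877871, plus strand, 587 exonic bases) between LINC01356 and the monocarboxylate transporter gene SLC16A1, 33976 bases away, and its function is not known. Its level was 18.3, 18.5, 18.1, 9.27, 32.5, 40.7, 22.7 and 4.80 TPM in TREM2-KO libraries, 14.4, 12.1, 17.7, 15.1, 23.8, 26.9 and 14.0 TPM in TREM2-R47H libraries, and 9.02, 12.5, 12.6, 12.3, 10.9, 11.8 and 7.05 TPM in SORL1-KO libraries. It was 26.5, 31.8, 29.3, 38.2, 53.0, 58.2 and 19.6 TPM in SORL1-A528T libraries, 31.6 and 40.3 TPM in CD33-SNP, 30.4 and 28.8 TPM in INPP5D-SNP, and 29.03, 39.6, 38.1, 30.7, 40.9, 39.8 and 32.8 TPM in WT libraries. Every SORL1-KO and every TREM2-R47H library was below every WT library. In TREM2-KO the libraries numbered 5 and 6 reached the WT range and the other 6 did not.

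**Figure D2:**
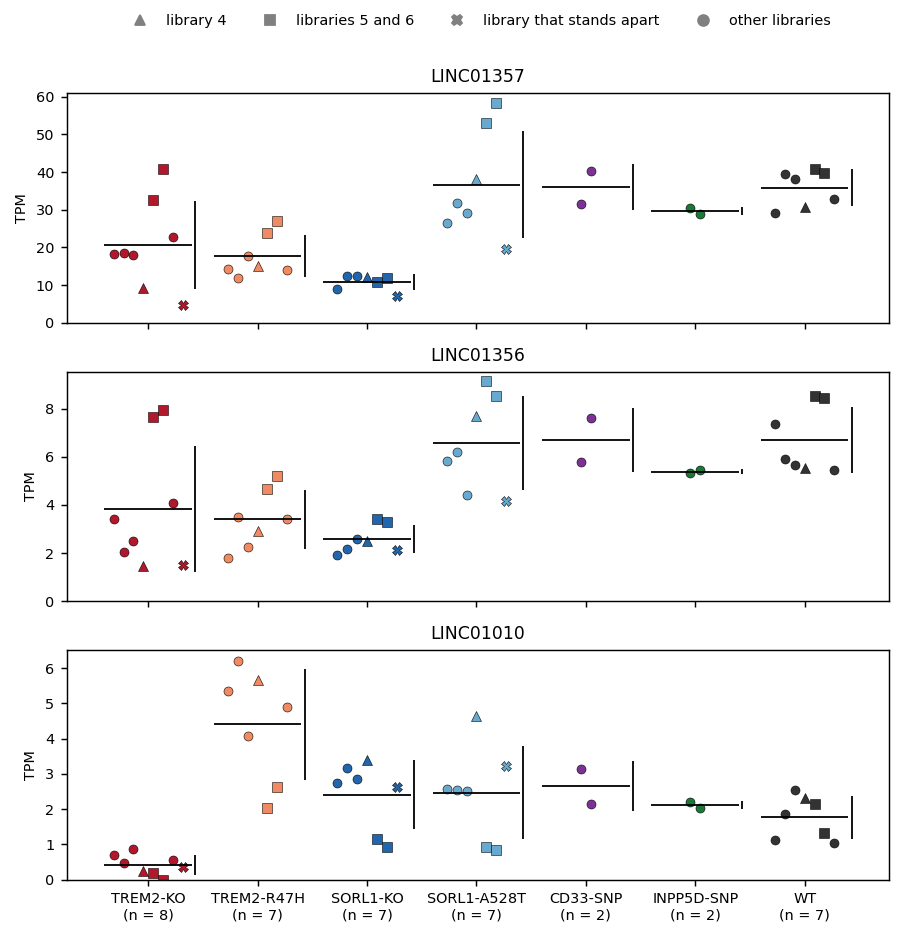
TPM of LINC01357, LINC01356 and LINC01010 in each library, by group; horizontal lines are group means and vertical lines to the right of each group are 1 SD. LINC01357 and LINC01356 are low in all SORL1-KO libraries, and LINC01010 is below 1 TPM in all 8 TREM2-KO libraries; squares mark libraries 5 and 6, which are high for LINC01357 in TREM2-KO, TREM2-R47H and SORL1-A528T and low for LINC01010 in TREM2-R47H, SORL1-KO and SORL1-A528T.

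The order of the group means of LINC01357 was SORL1-A528T, CD33-SNP, WT, INPP5D-SNP, TREM2-KO, TREM2-R47H and SORL1-KO. Neighbours in that order overlapped. SORL1-KO was separate from the first 4 groups: its highest library, at 12.6 TPM, was below the lowest of those 4 groups, at 19.6 TPM. The SORL1 lines thus lay at opposite ends although both carry edits of the same gene. The level of the neighbouring SLC16A1 showed no such split, at 67.7 ± 23.2 TPM in SORL1-KO and 60.7 ± 16.4 TPM in SORL1-A528T libraries, against 59.7 ± 6.2 TPM in WT libraries (SD, n = 7 each), and its correlation with LINC01357 over the 40 libraries was 0.23.

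LINC01356 overlaps LINC01357 head to head. It runs on the minus strand (chr1:112820170-112850643), and 400 bases of its exons, chr1:112850028-112850427, are also exon of LINC01357, out of 587 exonic bases of that gene. Over the 40 libraries its log2(TPM + 1) followed that of LINC01357 with a Pearson r of 0.91, the highest of all kept genes; the next were the GTPase gene RAC2 (0.77) and the mitochondrial carrier gene SLC25A12 (0.72). The 40 libraries share groups and library numbers, so these values describe likeness and carry no test. Because LINC01357 was chosen for its differences and both share exons, the calls of LINC01356 below are not independent of that choice.

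LINC01356 fell in the same 3 lines. It averaged 2.58 ± 0.57 TPM in SORL1-KO libraries against 6.70 ± 1.38 TPM in WT libraries (-1.10 ± 0.23 on the log2(TPM + 1) scale, limma, adjusted p = 0.012), and the groups did not overlap. In TREM2-R47H libraries it averaged 3.40 ± 1.23 TPM against the same WT level (-0.84 ± 0.23, adjusted p = 0.0136), again without overlap. In TREM2-KO libraries it averaged 3.82 ± 2.61 TPM (-0.83 ± 0.22, adjusted p = 0.0459), with libraries 5 and 6 at 7.65 and 7.95 TPM, above the WT mean, and 6 libraries below it. Between SORL1-KO and SORL1-A528T libraries it was 2.58 ± 0.57 against 6.58 ± 1.95 TPM, without overlap, but missed the threshold (-1.05 ± 0.23, adjusted p = 0.0528). With the stromal score in the fit, none of the 3 calls against WT held (adjusted p = 0.331 for SORL1-KO, 0.224 for TREM2-R47H and 0.291 for TREM2-KO), and the call for TREM2-KO was also lost without the 3 libraries that stood apart (adjusted p = 0.0946). LINC01356 correlated with that score at 0.49 over the libraries; WT library 3, with the lowest score of the WT libraries, had 5.65 TPM.

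LINC01010 was lower in every TREM2-KO library than in any TREM2-R47H or WT library. The gene lies at chr6:134437716-134504581 (plus strand), 119604 bases from SGK1, which encodes a kinase induced by serum and glucocorticoids. It was at 0.71, 0.47, 0.87, 0.26, 0.19, 0, 0.55 and 0.36 TPM in TREM2-KO libraries, against 5.34, 6.21, 4.08, 5.66, 2.04, 2.62 and 4.91 TPM in TREM2-R47H libraries. In WT libraries it was at 1.13, 1.86, 2.55, 2.33, 2.16, 1.33 and 1.05 TPM. All 8 TREM2-KO values were under 1 TPM, and 6 of the 7 TREM2-R47H libraries were above all WT libraries. SORL1-KO libraries held 2.75, 3.17, 2.85, 3.40, 1.16, 0.93 and 2.64 TPM, SORL1-A528T libraries 2.58, 2.54, 2.53, 4.63, 0.92, 0.84 and 3.23 TPM, CD33-SNP libraries 3.15 and 2.15 TPM, and INPP5D-SNP libraries 2.19 and 2.03 TPM. These 4 groups overlapped with WT, and the low values in the SORL1 lines were again libraries 5 and 6.

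The gene most like LINC01010 over the 40 libraries was EGR2, a zinc finger transcription factor induced in activated macrophages, with a Pearson r of 0.97 on the log2(TPM + 1) scale. EGR2 averaged 1.42 ± 0.84 TPM in TREM2-KO libraries, 13.2 ± 4.8 TPM in TREM2-R47H libraries and 5.46 ± 2.33 TPM in WT libraries. CHI3L1, which encodes a secreted chitinase-like protein, followed with r = 0.91 and group means of 122 TPM in TREM2-KO and 722 TPM in TREM2-R47H libraries, against 334 TPM in WT libraries. Next was the readthrough gene APOC4-APOC2 (r = 0.91), which shares exons with both apolipoprotein genes. The neighbour SGK1 was at 51.3 ± 8.0 TPM in TREM2-KO and 88.4 ± 15.5 TPM in TREM2-R47H libraries, against 69.6 ± 10.2 TPM in WT libraries, with r = 0.74. Among the members, LINC02345 (0.75), LINC02244 (0.73) and LINC01160 (0.68) were the most like it.

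**Figure D3:**
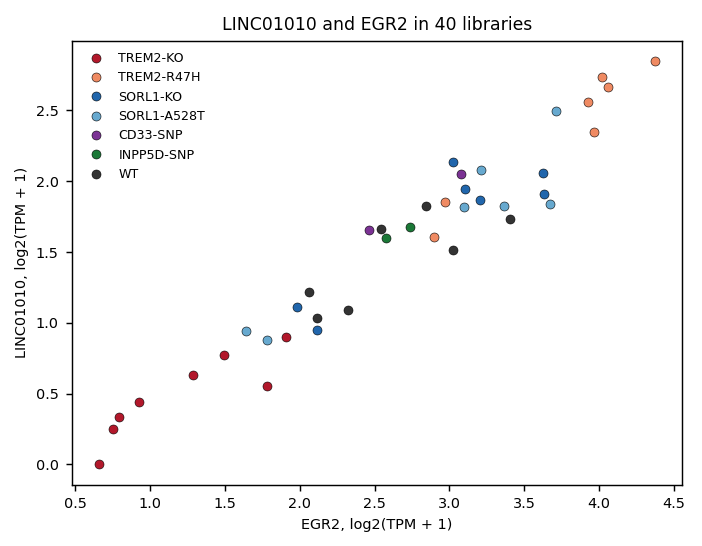
LINC01010 against EGR2 in the 40 libraries, both as log2(TPM + 1) and coloured by group. The 8 TREM2-KO libraries lie at the lower left, all below 1 TPM of LINC01010, the TREM2-R47H libraries reach highest, and Pearson r over all libraries is 0.97.

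TREM2-R47H cells against WT cells gave the largest set of differences from unedited cells. Of 141 members, 15 passed the threshold, 3 higher and 12 lower, or 10.6%, beside 11.4% of all kept genes, so LINC RNAs moved about as often as genes at large. The median difference of the members was -0.05, as was that of all kept genes (-0.06, on the log2(TPM + 1) scale). The labels state no pairing, but same-numbered libraries of these groups deviated together (lowest r 0.14). With the number as a block 25 members passed, 7 higher and 18 lower. Of kept genes 19.6% passed with the block. With the stromal score in the fit 6 members passed, 1 higher and 5 lower, beside 6.31% of kept genes. Without a filter on low values, when all 60504 listed genes were tested, none of the 141 passed (0.279% of those genes did), and with the 35502 genes above 0 in any library 10 passed (3.76%). Of 9 kept stromal and endothelial markers, 5 were lower in TREM2-R47H. The sum of the whole list of 12 ran between 133 and 271 TPM in TREM2-R47H libraries and between 189 and 3232 TPM in WT libraries. PECAM1, one of the 5, averaged 144 TPM in TREM2-R47H and 236 TPM in WT libraries, a large part of the TREM2-R47H sum. VWF and CDH5, also on the list, were at most 1.89 and 0.23 TPM in any library. Of 4 kept granulocyte and mast cell markers 2 were lower too (S100A9 and S100A8). CPA3 (4.77 against 2.85 TPM) and TPSAB1 (1.18 against 0.96 TPM) averaged higher in TREM2-R47H and did not pass. MPO and ELANE, also on that list, were at most 0.03 and 0 TPM in any library. Beyond the fit with the stromal score given above, the part of these markers was not tested.

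The lowest adjusted p belonged to LINC03014, at the tip of the short arm of chromosome 7 (chr7:149571-155465, plus strand), whose function is not known. It was at 19.03, 16.9, 16.1, 14.8, 15.8, 16.9 and 14.9 TPM in TREM2-R47H libraries, against 24.6, 26.6, 22.0, 22.7, 24.7, 23.6 and 26.0 TPM in WT libraries. The groups did not overlap, and the difference was -0.55 ± 0.12 on the log2(TPM + 1) scale (adjusted p = 0.00143). LINC00294 (chr11:33076149-33079454, plus strand), which overlaps TCP11L1 and an exon of the polyadenylation factor gene CSTF3 on the opposite strand and shares 21.1% of its 50-base stretches with other genes, was at 4.48, 4.78, 3.63, 3.84, 3.48, 4.0 and 3.97 TPM in TREM2-R47H libraries, against 7.35, 5.26, 5.38, 6.75, 5.74, 5.39 and 6.37 TPM in WT libraries. It too was lower in every TREM2-R47H library (-0.48 ± 0.11, adjusted p = 0.0023), while TCP11L1 averaged 10.0 ± 1.3 against 12.7 ± 2.8 TPM and did not pass (adjusted p = 0.172).

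LINC02705 was the one member listed at 0 in every library of a group of 7 or 8. This short RNA (chr11:60159687-60160822, minus strand, 385 exonic bases) lies 11192 bases from MS4A6A, a gene of the membrane-spanning 4A family at an Alzheimer's disease risk locus. It was listed at 0 in all 7 TREM2-R47H libraries, against 0, 0.76, 2.35, 0, 2.34, 2.53 and 0.91 TPM in WT libraries, 2 of which were at 0 too (adjusted p = 0.00861). TREM2-KO libraries all held some, between 0.45 and 3.37 TPM. MS4A6A moved the same way: it averaged 277 ± 129 TPM in TREM2-R47H libraries against 516 ± 121 TPM in WT libraries (-1.01, adjusted p = 0.0172), and 850 ± 186 TPM in TREM2-KO libraries. With the stromal score in the fit, the adjusted p of LINC02705 against WT was 0.0623.

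Other members lower in TREM2-R47H were LINC02977, next to the sushi domain gene SUSD1, at 1.37 ± 0.26 against 2.23 ± 0.49 TPM in WT libraries (adjusted p = 0.00409), and LINC03070 on the X chromosome, at 3.88 ± 1.17 against 9.60 ± 5.56 TPM (adjusted p = 0.015). SUSD1 fell with its neighbour, to 20.5 ± 1.9 TPM in TREM2-R47H libraries against 30.5 ± 3.1 TPM in WT libraries (-0.55, adjusted p = 2.4e-04). LINC01503 was at 11.8 ± 2.0 against 17.5 ± 3.2 TPM in WT libraries (adjusted p = 0.035). That call did not hold under median-ratio scaling, with the stromal score, with every gene above 0 tested, or with libraries 5 and 6 averaged (adjusted p = 0.0715, 0.141, 0.0785 and 0.0705).

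Higher in TREM2-R47H were LINC00649, LINC01857 and LINC03011. LINC00649 (chr21:33915534-33977691, plus strand) averaged 14.1 ± 3.1 TPM against 9.73 ± 0.66 TPM in WT libraries (0.47 ± 0.13, adjusted p = 0.0128), and all 7 TREM2-R47H libraries were above the WT mean. Its exons overlap those of ATP5PO, a subunit of the mitochondrial ATP synthase, on the opposite strand; ATP5PO was at 200 ± 12 against 192 ± 6 TPM and did not pass. LINC01857 averaged 2.62 ± 0.81 against 1.18 ± 0.77 TPM in WT libraries (0.78 ± 0.22, adjusted p = 0.0163), and LINC03011 averaged 8.56 ± 2.32 against 5.54 ± 0.81 TPM (0.52 ± 0.17, adjusted p = 0.0464). With the stromal score in the fit neither held (adjusted p = 0.115 for LINC01857 and 0.0838 for LINC03011), and LINC03011 was also lost with a pseudocount of 0.1 TPM (adjusted p = 0.0509), with every gene above 0 tested (0.0988) and with libraries 5 and 6 averaged (0.0947).

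Long noncoding RNAs with names outside the LINC series were described beside the members. Of 38 kept, 8 were higher and 3 lower in TREM2-R47H than in WT libraries, beside the 11.4% of all kept genes given above, with a median difference of 0.17. The snoRNA host ZFAS1 averaged 533 ± 29 TPM in TREM2-R47H libraries against 378 ± 9 TPM in WT libraries (0.49, adjusted p = 5.4e-06). Further hosts of small nucleolar RNAs rose with it: SNHG6 (219 ± 12 against 171 ± 13 TPM, adjusted p = 4.0e-04) and GAS5 (250 ± 25 against 179 ± 22 TPM, adjusted p = 0.00206). Genes of nuclear RNA decay and export, which set the lifetime of many noncoding RNAs, gave 1 call among 24, which was lower in TREM2-R47H, the nonsense-mediated decay helicase gene UPF1 (44.5 ± 2.9 against 49.8 ± 1.9 TPM, adjusted p = 0.0142). Former LINC genes now known to encode small proteins (MTLN, SMIM26, SMIM30 and NBDY) gave no call in any of the 8 comparisons.

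TREM2-KO against TREM2-R47H gave the most calls. Of 141 members, 34 passed, 25 higher and 9 lower in TREM2-KO, or 24.1%, beside 21.3% of all kept genes; the median difference was 0.12 for the members and 0.06 for kept genes. Without a filter on low values 6 members passed, 4 higher and 2 lower, beside 1.14% of all listed genes. The differences ran from 0.28 to 1.87 in size on the log2(TPM + 1) scale, and 9 were at least 1. In 6 of the 34 the groups did not overlap: LINC00294, LINC01645, LINC02345, LINC02611, LINC02705 and LINC03070.

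**Figure D4:**
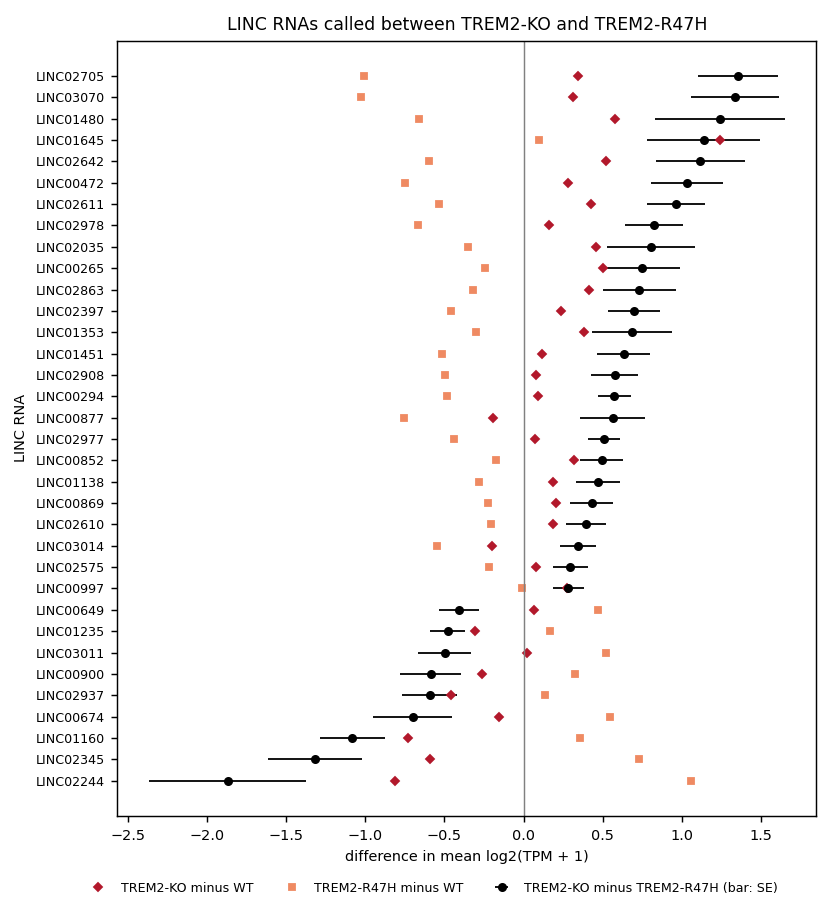
Difference in mean log2(TPM + 1) of the 34 LINC RNAs that passed between TREM2-KO and TREM2-R47H libraries; black points are TREM2-KO minus TREM2-R47H with SE, red diamonds TREM2-KO minus WT and orange squares TREM2-R47H minus WT. The black points run from -1.87 (LINC02244) to 1.35 (LINC02705), and the 3 differences share libraries, so they are shown side by side without a test.

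Higher in TREM2-KO by the lowest adjusted p were LINC00294, LINC02705, LINC02611, LINC02977, LINC03070 and LINC00472. LINC00294 averaged 6.50 ± 0.89 TPM in TREM2-KO libraries against 4.03 ± 0.46 TPM in TREM2-R47H libraries (0.57 ± 0.10, limma, adjusted p = 9.6e-05), and here TCP11L1 rose too (13.4 ± 2.9 against 10.0 ± 1.3 TPM, adjusted p = 0.0403). LINC02611 (chr2:98761938-98772920, minus strand) was at 8.85, 10.1, 8.77, 9.81, 11.6, 10.7, 9.57 and 9.64 TPM in TREM2-KO libraries, against 4.63, 2.47, 2.97, 7.18, 5.16, 7.97 and 3.72 TPM in TREM2-R47H libraries (0.96 ± 0.19, adjusted p = 2.1e-04). The TREM2-KO libraries were tightly grouped and all above the TREM2-R47H ones. WT libraries lay between 5.74 and 9.15 TPM, overlapping with both.

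LINC03070 (chrX:5653421-5726305, minus strand) was at 10.8, 7.95, 11.3, 18.7, 8.51, 9.45, 11.2 and 13.1 TPM in TREM2-KO libraries, against 3.92, 3.74, 3.11, 5.94, 4.33, 2.11 and 4.01 TPM in TREM2-R47H libraries (1.34 ± 0.28, adjusted p = 5.0e-04). It was highest in the library numbered 4 in TREM2-KO, TREM2-R47H, SORL1-KO, SORL1-A528T and WT alike. LINC00472 averaged 11.5 ± 1.9 TPM in TREM2-KO libraries against 5.80 ± 3.75 TPM in TREM2-R47H libraries (1.03 ± 0.23, adjusted p = 0.00103), where libraries 5 and 6, at 12.6 and 9.20 TPM, reached the TREM2-KO range. LINC01480 averaged 51.6 ± 27.4 against 25.0 ± 18.7 TPM (1.24 ± 0.41, adjusted p = 0.027). Its neighbour CEACAM21, of the carcinoembryonic antigen family of adhesion molecules, rose as well, to 10.3 ± 2.4 TPM in TREM2-KO libraries against 5.57 ± 2.12 TPM in TREM2-R47H libraries (adjusted p = 0.00926).

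Lower in TREM2-KO by the lowest adjusted p were LINC01160, LINC02345, LINC01235, LINC02244, LINC02937 and LINC00649. LINC01160 (chr1:111599655-111608723, minus strand, within the body of the GTPase gene RAP1A) was at 5.92, 5.10, 6.78, 5.39, 3.93, 4.61, 5.61 and 10.2 TPM in TREM2-KO libraries, against 11.4, 11.5, 9.38, 17.3, 17.6, 15.3 and 12.5 TPM in TREM2-R47H libraries. The groups overlapped only through TREM2-KO library 8, one of those that stood apart (-1.08 ± 0.21, adjusted p = 1.9e-04), and RAP1A did not pass.

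LINC02345 was at 1.57, 1.66, 0.52, 1.24, 0.67, 1.14, 0.77 and 1.04 TPM in TREM2-KO libraries, against 5.27, 6.21, 4.09, 5.54, 2.02, 2.80 and 4.07 TPM in TREM2-R47H libraries (-1.32 ± 0.30, adjusted p = 0.00134). Its neighbour SPRED1, an inhibitor of RAS-MAPK signalling 189986 bases away, was lower too (42.4 ± 7.1 against 58.8 ± 5.3 TPM, adjusted p = 0.00816). LINC02244 had the largest difference of the called members, at 2.23 ± 2.27 TPM in TREM2-KO libraries against 10.5 ± 6.5 TPM in TREM2-R47H libraries (-1.87 ± 0.50, adjusted p = 0.0057). Within TREM2-R47H it split by library: libraries 5 and 6 held 1.83 and 1.91 TPM and the other 5 between 9.00 and 17.0 TPM. LINC02937 was at 0.44 ± 0.37 against 1.16 ± 0.54 TPM (adjusted p = 0.013), and with libraries 5 and 6 averaged it missed the threshold (adjusted p = 0.0554).

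Genes on the marker lists of other cells moved between these lines as well. Of 4 kept granulocyte and mast cell markers, 2 were higher in TREM2-KO. S100A9 was at 685 ± 476 TPM against 36.9 ± 32.2 TPM in TREM2-R47H libraries and S100A8 at 190 ± 157 against 12.1 ± 9.6 TPM. CPA3 (5.2 against 4.77 TPM) and TPSAB1 (1.56 against 1.18 TPM) did not pass. MPO and ELANE were at most 0.03 and 0 TPM in any library. The sum of the whole list of 6 ran between 136 and 1727 TPM in TREM2-KO and between 26.0 and 148 TPM in TREM2-R47H libraries. Of 4 cycling markers 2 were higher, TOP2A at 117 ± 15 against 75.1 ± 9.2 TPM, and the list's sum ran between 287 and 462 TPM in TREM2-KO and between 260 and 322 TPM in TREM2-R47H libraries. In bulk RNA, more cells of a type and more RNA per cell cannot be told apart, and the part of these markers in the LINC RNA differences was not tested. Of the 38 named noncoding RNAs outside the series, 1 was higher and 8 lower in TREM2-KO (21.3% of all kept genes passed in either direction), ZFAS1 (387 ± 43 against 533 ± 29 TPM, adjusted p = 2.3e-06) and SNHG29 (417 ± 38 against 564 ± 40 TPM, adjusted p = 1.1e-04) by the lowest adjusted p.

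Several called members moved together with the nearest protein-coding gene. Between TREM2-KO and TREM2-R47H, the nearest gene of 17 of the 34 called members passed in the same direction, that of 2 in the opposite direction (RASAL2 beside LINC01645 and the chitinase gene CHIT1 beside LINC01353), and that of 15 did not pass; of all kept protein-coding genes 23.7% passed. Between TREM2-R47H and WT, 4 of 15 moved with their neighbour, namely LINC00877 with RYBP, LINC02977 with SUSD1, LINC02908 with ABCA2 and LINC02705 with MS4A6A, none against it, and 12.7% of kept protein-coding genes passed in either direction. Across the 40 libraries the median Pearson r of a member with its nearest gene was 0.26, and 41 of 143 pairs were above 0.5. The highest were LINC02035 with the transporter gene SLC49A4 (0.90, 5802 bases apart), LINC00957 with the actin-binding gene DBNL (0.82) and LINC00294 with TCP11L1 (0.80). The most negative was LINC02361 with the ribosome biogenesis gene NOC4L (-0.73). The median was 0.23 for the 50 pairs within 10 kb and 0.32 for the 34 pairs over 100 kb apart.

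The remaining comparisons held few or no calls. TREM2-KO against WT gave 1 of 141, LINC01356 (0.709%, beside 1.61% of kept genes), with 17 members (12.1%) and 10.6% of kept genes at an unadjusted p under 0.05. Same-numbered libraries of these groups deviated together too, and with the block 5 members passed, 1 higher and 4 lower, beside 3.95% of kept genes. LINC00963, a member with a mean of 43.2 ± 8.8 TPM in TREM2-KO against 53.2 ± 7.4 TPM in WT libraries, was lower with the block (-0.36, adjusted p = 0.00379) and did not pass without it. SORL1-KO against WT gave 1 of 141, again LINC01356 (0.709%, beside 1.09%), with 14 members (9.93%) and 10.8% of kept genes at an unadjusted p under 0.05. Without a filter on low values both calls of LINC01356 were lost (limma, adjusted p = 0.759 for TREM2-KO and 0.469 for SORL1-KO). As given above, its calls, that in TREM2-R47H included, are not independent of the choice of LINC01357. Neither TREM2-KO nor SORL1-KO against WT thus held a call apart from that choice in the main fit.

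SORL1-A528T against WT gave no call among the members with limma (0.0471% of kept genes passed), and 5 members (3.55%) had an unadjusted p under 0.05, beside 5.95% of kept genes. SORL1-KO against SORL1-A528T gave none either (0.0942% of kept genes), with 4 members (2.84%) and 2.24% of kept genes unadjusted. Here too same-numbered libraries deviated together, and with the block 1 member passed, lower in SORL1-KO, beside 0.162% of kept genes. CD33-SNP against WT gave none (0% of kept genes), with 4 members (2.84%) and 4.18% of kept genes unadjusted. INPP5D-SNP against WT gave none (0.0337%), with 8 members (5.67%) and 7.32% of kept genes unadjusted. CD33-SNP and INPP5D-SNP had 2 libraries each, which widened their errors: the SE of the difference from WT was 0.35 for LINC01356 in either of these lines and 0.23 in SORL1-A528T.

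Over all 7 groups at once, the moderated F-test called 20 of 141 members (14.2%, beside 13.6% of kept genes). Among them are 2 whose calls lend no support. LINC01614 met the filter almost only through WT and INPP5D-SNP libraries, where it was high, so a difference was built in. LINC01356 shares exons with LINC01357, which was chosen for its differences. After LINC01614 (adjusted p = 8.8e-04) came LINC01356 (0.00119), LINC00294 (0.00207), LINC01503 (0.00349), LINC02977 (0.0041), LINC02705 (0.00445), LINC02978 (0.00668), LINC01160 (0.00711), LINC03070 (0.00842) and LINC02611 (0.0106). LINC01503 was highest in 2 of the libraries that stood apart, at 38.3 TPM in SORL1-KO library 7 and 36.7 TPM in SORL1-A528T library 7. LINC02978, near the ubiquitin ligase gene RNF135, averaged 8.65 ± 3.53 TPM in TREM2-KO and 4.26 ± 1.21 TPM in TREM2-R47H libraries, against 7.32 ± 1.72 TPM in WT libraries.

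LINC01614 followed the stromal markers. The gene (chr2:215718043-215719424, plus strand, 648 exonic bases) was at 4.02 and 6.97 TPM in the INPP5D-SNP libraries and at 0, 1.01, 0, 3.29, 6.55, 5.00 and 0.19 TPM in WT libraries. In CD33-SNP libraries it was at 0.17 TPM in both, and in the TREM2 and SORL1 lines it passed 1 TPM in 1 library, TREM2-R47H library 5 (1.42 TPM). Among WT libraries it was thus listed at 0 in 2 and passed 1 TPM in 4. Over the 40 libraries its r with the score was 0.91; the next highest was LINC01356 with 0.49. It passed the filter on low values with 7 libraries, all but 1 of them WT or INPP5D-SNP libraries.

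**Figure D5:**
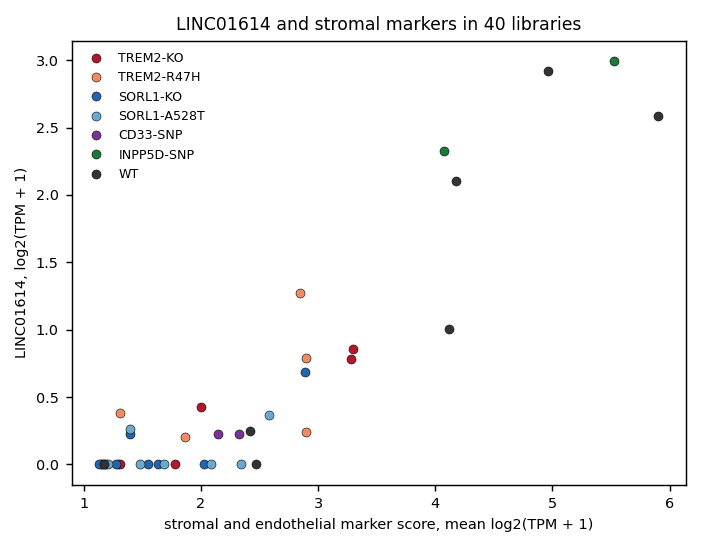
LINC01614 as log2(TPM + 1) against the stromal and endothelial marker score (mean log2(TPM + 1) of 12 markers) in the 40 libraries, coloured by group. The INPP5D-SNP libraries and WT libraries 4, 5 and 6 lie to the upper right and the TREM2-KO and SORL1 libraries all below 1 TPM; Pearson r is 0.91.

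The 3 libraries that stood apart also held the most LINC RNA in their groups. The members' summed level was 1087 TPM in TREM2-KO library 8, 1214 TPM in SORL1-KO library 7 and 1180 TPM in SORL1-A528T library 7, each the highest of its group, and 49, 67 and 67 of the 143 members (34.3%, 46.9% and 46.9%) were highest in that library of their group. The same held for 28.2%, 31.4% and 33.8% of kept genes, and these libraries had the most genes at 1 TPM or more in their groups (14068, 14004 and 14043). LINC00847, named after its values were seen, was at 28.7, 35.3 and 35.5 TPM in these libraries and below 16 TPM in the other 37. LINC00996, beside the immune GTPase gene GIMAP8 and also named afterwards, was at 27.3, 22.7 and 18.5 TPM in them and at most 13.5 TPM elsewhere, a level it reached in TREM2-KO library 4. In TREM2-R47H the library numbered 4 held that place, with 48 of the members (33.6%) and 22.9% of kept genes at their highest. Without the 3 libraries, 4 members passed between TREM2-KO and WT, 2 in each direction, beside 1.81% of kept genes.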

How the data were processed

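Total RNA of 40 libraries was sequenced as paired 150-base reads from a directional kit, per the labels' protocols. The authors deposited gene-level TPM values; tools listed, with no role, in the submitters' processing notes are RSEM 1.3.1, STAR 2.7, cutadapt 1.18 and DESeq2. Genome build, annotation and strand setting: not given in the sources used here. Depth per library cannot be recovered from TPM. Symbols matched 93.5% of the gene IDs, and positions came from GENCODE release 29 by Ensembl ID. The filter asked for 1 TPM or more in 7 or more libraries. log2(TPM + 1) values were fitted with limma 3.58.1 (R 4.3.3; trended, robust variance) with 7 group means over all 40 libraries, which lets groups of 2 share the spread of the others. Tests were two-sided, Benjamini-Hochberg adjusted over 14855 genes and called below 0.05. Fold changes are on the log2(TPM + 1) scale and understate those of low genes. ± is the SD, or the SE where it follows a difference.

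The members and lists were chosen with earlier results of these data known. Named members were the 12 most abundant, up to 6 called per direction and comparison and 10 by the F-test, by adjusted p, with their nearest kept protein-coding genes, the 3 genes most like LINC01010 and LINC01357, and up to 4 genes a list; members named outside this rule in counts and neighbour pairs were chosen after their values were seen. Same-numbered libraries deviated together in every pair (r above 0.1) for TREM2-KO and TREM2-R47H against WT (lowest 0.114 and 0.14) and for SORL1-KO against SORL1-A528T (lowest 0.306), so the fit with the number as a block is given beside those. Alternatives were a pseudocount of 0.1, no filter, median-ratio scaling, the block, the stromal score, and leaving out each CD33-SNP and INPP5D-SNP library. 3 more were chosen after seeing the data: without the 3 libraries that stood apart, libraries 5 and 6 averaged, and all genes above 0 tested. The fit was tested on simulated data. Promoter sequences are from RefSeq. Of the marker lists, lymphoid genes gave 1 call higher in TREM2-R47H than in WT and 1 lower in TREM2-KO than in TREM2-R47H (both NKG7), neural genes 1 (MAP2, lower in TREM2-KO than in TREM2-R47H), and progenitor genes KIT in the same comparisons.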

Additional observations from a re-analysis of the deposited data

Results flagged for a closer look

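Within single groups, 14 of 144 sets of values of a named member held a library whose gap to the others exceeded Dixon's 95% limit; chance flags about 1 in 20 groups. In the libraries that stood apart, LINC03014 was at 31.5 TPM in TREM2-KO library 8 (others 17.1 to 22.3 TPM), and in SORL1-KO library 7 it was at 35.6 TPM (others 19.4 to 22.7). LINC01128 was low in SORL1-KO library 7, at 12.15 TPM (others 16.7 to 20.8). LINC01160 was at 21.5 TPM and LINC02937 at 3.21 TPM in that library, above 8.14 to 12.5 and 0.78 to 1.35 TPM in the others. LINC01503 was at 36.7 TPM in SORL1-A528T library 7 (others 16.4 to 22.5).

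In libraries numbered 4, LINC01094 was at 62.8 TPM in WT (others 11.0 to 19.8), LINC00963 at 64.3 TPM in TREM2-R47H (others 46.3 to 52.6) and LINC00900 at 26.1 TPM in TREM2-R47H (others 12.8 to 17.3). LINC01128 was low in TREM2-R47H library 4, at 13.05 TPM (others 18.1 to 22.4). In SORL1-KO library 4, LINC02977 was at 2.58 TPM (others 1.59 to 1.97) and LINC01614 at 0.61 TPM (others 0 to 0.17). LINC01002 was at 44.9 TPM in TREM2-KO library 6 (others 31.5 to 37.1), and LINC02705 at 1.89 TPM in SORL1-A528T library 5 (others 0.33 to 0.80).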

How the results depend on the processing

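No named difference reversed its sign under any alternative. With the replicate number as a block, the F-test called 38 members against 20; TREM2-KO against WT gave 5 against 1, TREM2-R47H against WT 25 against 15, SORL1-KO against WT 4 against 1, SORL1-A528T against WT 1, INPP5D-SNP against WT 9 and SORL1-KO against SORL1-A528T 1, each of the last 3 against 0. The pairing check failed for SORL1-KO, SORL1-A528T, CD33-SNP and INPP5D-SNP against WT and for TREM2-KO against TREM2-R47H (lowest r -0.105, -0.082, -0.025, 0.021 and 0.092), so the block is not given beside those results. Of 7 libraries of the first-named line, 4, 3 and 2 correlated best with the library of their own number for SORL1-KO and SORL1-A528T against WT and TREM2-KO against TREM2-R47H. The comparisons that met the check were much the same by this measure. It gave 3 for TREM2-KO against WT, 4 for TREM2-R47H against WT and 3 for SORL1-KO against SORL1-A528T. Single members did deviate together by number in these groups (LINC01094, LINC03070 and LINC01010), while LINC01094 was as high in library 1 of CD33-SNP and INPP5D-SNP as in libraries numbered 4. Without a filter, 60504 genes entered and the counts were 1 for the F-test, 0 for TREM2-KO, 0 for TREM2-R47H and 0 for SORL1-KO against WT, and 6 for TREM2-KO against TREM2-R47H; with only genes above 0 in any library tested, TREM2-KO against WT gave 0. With the stromal score, TREM2-R47H against WT gave 6, SORL1-KO against WT 0 and SORL1-KO against SORL1-A528T 1. Without the 3 libraries that stood apart, TREM2-KO against WT gave 4 and SORL1-KO against SORL1-A528T 1. With libraries 5 and 6 averaged the F-test gave 13. The cause was not tested. Leaving out each CD33-SNP or INPP5D-SNP library gave 17 to 20 members by the F-test and 0 members in either line against WT each time. Median-ratio scaling moved the median of all genes between TREM2-R47H and WT to 0.01. TPM keeps no depth, so the precision of members near 1 TPM is unknown.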
